A study of Mus musculus with 8 samples.

Results

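The circadian clock genes described here are the 10 genes Arntl, Clock, Per1, Per2, Per3, Cry1, Cry2, Nr1d1, Nr1d2 and Dbp, taken by symbol from the gene table of aged mouse tibialis anterior (TA) muscle. All 10 were among the 16686 genes of the table and among the 12542 genes with enough counts to be tested. The study asked which transcripts are altered in an aged fast-twitch muscle that lacks fMyBP-C, the fast-muscle form of myosin-binding protein C, a sarcomere protein encoded by Mybpc2. RNA was sequenced from TA muscle of 4 wild-type (WT Old) and 4 homozygous Mybpc2 knockout (C2-/- Old) mice, all male, of the FVBN strain and 22 months old. The knockout allele carries a Neo cassette between loxP sites in place of Mybpc2 exons 2 to 22, and no tissue-restricted Cre is named in the labels. All mice were kept on a cycle of 12 h light and 12 h dark, and the time of day at which the muscles were taken was not given in the sources used here.

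The clock is a feedback loop of transcription. ARNTL (also called BMAL1) and CLOCK pair up, bind E-box sequences and switch on the Per and Cry genes, whose proteins then block that pair. In a second loop ARNTL and CLOCK switch on Nr1d1 and Nr1d2, which encode the REV-ERB repressors, and these compete with the ROR receptors at ROR response elements to hold Arntl down for part of the day. Dbp is a direct output of the E-box and encodes a factor that binds D-boxes, among them those of the Per genes. In skeletal muscle this loop runs in the fibres themselves, and Arntl transcripts peak close to the time at which Dbp transcripts are lowest. A single collection from each mouse was therefore described by a ratio of genes of opposite phase, and not by the level of any single gene. Such a ratio was not tested as a measure of clock position.

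Motifs known from the loop were searched in the RefSeq promoters of the members (GRCm38.p6, the build of the deposited files), and sequences are shown for 5 of the 6 genes with a match, to place the motifs beside the values. Promoter windows of 300 bases, 250 before and 50 after the start site, were found for 9 of the 10 genes in 13 windows, and Per2 had no entry and was not searched. Both strands were searched for the E-box CACGTG, the variant E-box CACGTT (called E-prime), the D-box TTATGTAA and the ROR response element, and no match overlapped another. Each sequence below holds the 250 bases before the start site from 5′ to 3′ on the strand of the gene, with the matched motif in capitals and any match to the opposite strand in capitals as it reads on the gene's strand.
Per1, chr11:69098699-69098948, plus strand: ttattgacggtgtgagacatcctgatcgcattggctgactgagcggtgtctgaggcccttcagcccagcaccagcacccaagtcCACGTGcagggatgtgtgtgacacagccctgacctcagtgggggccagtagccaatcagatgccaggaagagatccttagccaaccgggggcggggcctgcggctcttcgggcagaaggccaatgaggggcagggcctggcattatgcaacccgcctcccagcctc
Cry1, chr10:85185055-85185304, minus strand: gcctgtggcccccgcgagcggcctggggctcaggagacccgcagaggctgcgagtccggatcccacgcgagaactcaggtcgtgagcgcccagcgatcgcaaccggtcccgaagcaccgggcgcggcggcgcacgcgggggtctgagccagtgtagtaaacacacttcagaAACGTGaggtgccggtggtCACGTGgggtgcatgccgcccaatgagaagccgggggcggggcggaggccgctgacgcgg
Nr1d1, chr11:98775378-98775627, minus strand: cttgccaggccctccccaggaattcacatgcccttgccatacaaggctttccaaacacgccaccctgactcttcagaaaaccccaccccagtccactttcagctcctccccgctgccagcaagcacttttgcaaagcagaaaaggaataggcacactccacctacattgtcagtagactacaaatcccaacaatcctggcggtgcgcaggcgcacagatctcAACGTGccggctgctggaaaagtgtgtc
Per3, chr4:151044666-151044915, minus strand: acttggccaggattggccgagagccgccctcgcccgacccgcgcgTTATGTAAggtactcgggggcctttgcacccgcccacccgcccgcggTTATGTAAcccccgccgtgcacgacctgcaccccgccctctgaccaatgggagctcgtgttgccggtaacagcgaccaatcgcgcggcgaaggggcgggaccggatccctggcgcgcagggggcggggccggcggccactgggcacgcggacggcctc
Per1 held an E-box 166 bases before 1 of its start sites, which lies inside the gene interval given below. Cry1 held an E-box 60 bases and an E-prime box 79 bases before its start site, and Nr1d1 held an E-prime box 28 bases before it. Per3 held 2 copies of the D-box, beginning 205 and 158 bases before its start site. For Arntl the match was a ROR response element just inside the transcribed part, 27 bases from 1 of its start sites, and only the 30 bases around it are shown.
Arntl, chr7:113207528-113207557, plus strand: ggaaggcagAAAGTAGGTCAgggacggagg
Over all 32851 promoter windows of the mouse, 7.15% held the E-box, 4.68% the E-prime box, 0.938% the D-box and 0.384% the ROR response element. Cry2 also held an E-prime box, 166 bases before its start site. A match is a description of the letters and was not tested as a binding site.

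Sequencing depth was similar in all mice, with 25425993 to 29747692 counts over the genes of the table, so that 3 counts corresponded to 0.101 to 0.118 CPM, the counts of a gene scaled to one fixed total in every mouse. Values are CPM scaled by the trimmed mean of M-values (TMM). Mybpc2 read 4964 to 7392 CPM in WT Old mice and 3.85 to 38.3 CPM in C2-/- Old mice, with mouse 3 the highest of the knockouts. Fast-fibre markers were abundant in every muscle (140100 to 183700 summed CPM over 7 genes), and none of the 10 marker lists had a gene at 0 in all mice. The 5 fibro-adipogenic progenitor markers summed to 227 to 310.1 CPM in WT Old and to 329 to 374 CPM in C2-/- Old mice without overlap. Of these 1 of 5 was higher at an unadjusted p under 0.05. The 5 slow-fibre markers summed to 4.85 to 33.2 CPM and 3.87 to 9.65 CPM, with 2 of 5 lower. Over all genes tested 3.38% were higher and 1.91% lower at that p. The slow-fibre sum was 14.85, 4.85, 7.66 and 33.2 CPM in WT Old mice 1 to 4. Mice 2 and 3 lay inside the knockout range. Among the remaining lists 1 of the 5 tested tendon markers was higher and the summed ranges of the 2 genotypes overlapped, those of blood running from 483 to 6294 CPM over all mice. The part of these differences in the clock-gene values was not tested. In a whole muscle, fewer cells of a type and less RNA per cell cannot be told apart.

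None of the 10 clock genes passed a test of a difference between the genotypes. No clock gene passed the threshold of an adjusted p under 0.05 with a change of over 1.5-fold, none had an unadjusted p under 0.05, and none had CPM ranges that did not overlap. Over all genes tested the percentages were 0.0319% called, 5.29% with an unadjusted p under 0.05 (3.38% higher and 1.91% lower in C2-/- Old mice) and 3.38% without overlap. Adjusted p values for all 10, from the edgeR quasi-likelihood fit with Benjamini-Hochberg correction, lay between 0.968 and 0.998. Of the 10 genes 3 had a higher mean log2 level in C2-/- Old mice and 7 a lower one, and 54.2% of all genes tested were lower. Their median log2 fold change was -0.05, beside -0.02 over all genes, and their median absolute log2 fold change was 0.129, beside 0.133 over all genes. The values by mouse follow, ordered by the role of each gene in the loop.

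**Figure D1:**
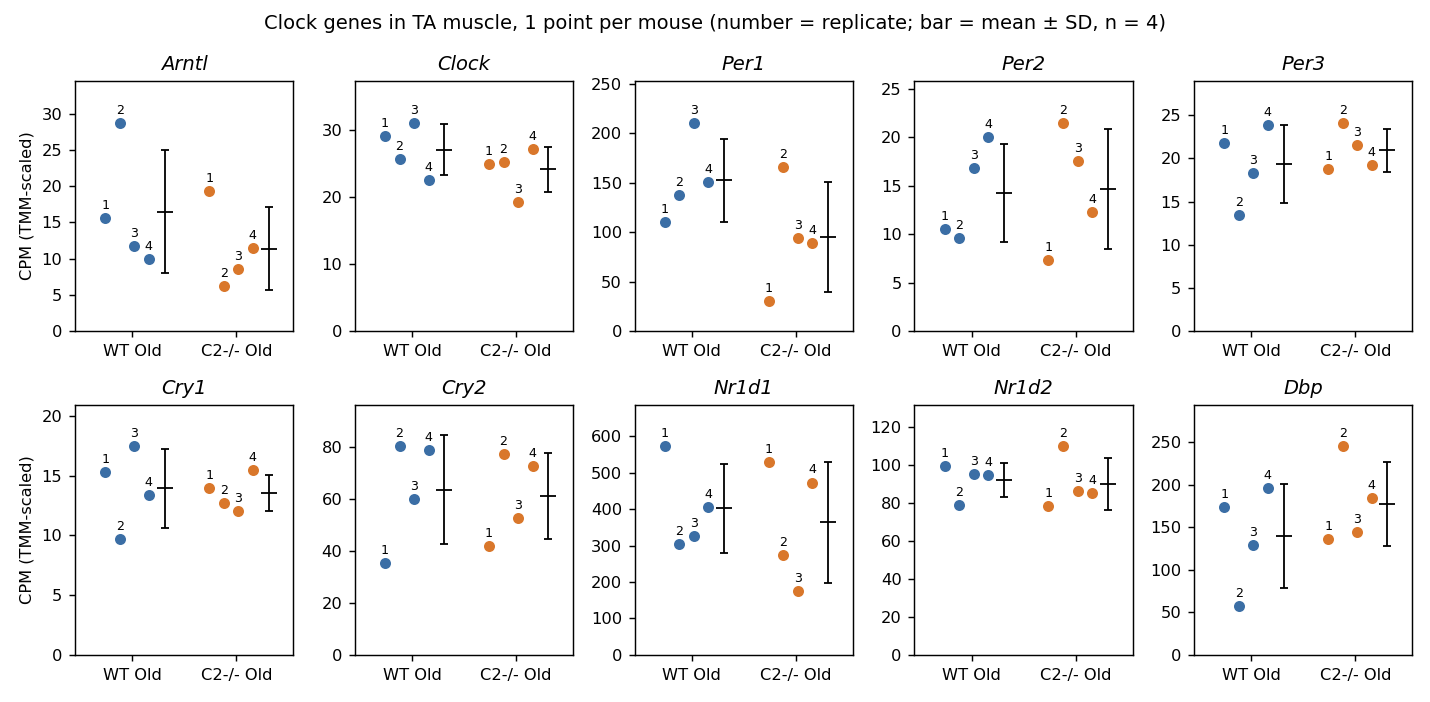
CPM (TMM-scaled, linear axis from 0) of each of the 10 clock genes, with 1 numbered point per mouse (WT Old blue, C2-/- Old orange) and the mean ± SD of the 4 mice of a genotype as a bar. The genotypes overlap in every panel, Arntl is highest in WT Old mouse 2 (28.7 CPM) and lowest in C2-/- Old mouse 2 (6.25 CPM), and Dbp has these same mice at its ends in reverse order (57.7 and 245 CPM).

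Arntl (Entrez gene 11865, chr7:113207465-113314126, plus strand) encodes the activator whose loss stops the clock. It was at 15.6, 28.7, 11.7 and 9.95 CPM in WT Old mice 1 to 4 and at 19.3, 6.25, 8.51 and 11.4 CPM in C2-/- Old mice 1 to 4. WT Old mouse 2 and C2-/- Old mouse 2 stood at the ends of a 4.60-fold range, and the groups overlapped. The means were 16.5 ± 8.50 and 11.4 ± 5.71 CPM (SD, n = 4 each), a log2 fold change of -0.54 with a 95% interval of -1.40 to 0.33. Without WT Old mouse 2 the log2 fold change was -0.12. Clock (Entrez gene 12753, chr5:76209868-76304792, minus strand), which encodes the partner of ARNTL, was at 29.1, 25.6, 31.0 and 22.4 CPM in WT Old and at 24.8, 25.2, 19.2 and 27.1 CPM in C2-/- Old mice. It varied only 1.61-fold over the 8 mice and had no extreme mouse in common with Arntl. Its log2 fold change was -0.17, with an interval of -0.49 to 0.16.

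The Per genes encode the repressors that accumulate and close the loop, and Per1 is also an immediate early and glucocorticoid-responsive gene. Per1 (Entrez gene 18626, chr11:69095217-69109960, plus strand) was at 110.5, 138, 211 and 150.4 CPM in WT Old and at 30.9, 166, 94.5 and 89.2 CPM in C2-/- Old mice. C2-/- Old mouse 1 was the lowest of all and C2-/- Old mouse 2 lay within the WT Old range. The means were 152 ± 42.3 and 95.2 ± 55.4 CPM (SD, n = 4 each). The log2 fold change of Per1 was -0.68 (interval -1.57 to 0.21, unadjusted p = 0.120), the largest in size among the 10 genes. It was -0.38 without C2-/- Old mouse 1 and -1.08 without C2-/- Old mouse 2.

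Per2 (Entrez gene 18627, chr1:91415982-91459324, minus strand) was at 10.6, 9.59, 16.8 and 20.1 CPM in WT Old and at 7.34, 21.5, 17.5 and 12.3 CPM in C2-/- Old mice. In each genotype 2 mice were low and 2 were high or intermediate, and both means were close to each other at 14.2 ± 5.01 and 14.7 ± 6.17 CPM (SD, n = 4 each). The log2 fold change was 0.04, with an interval of -0.69 to 0.77. Per3 (Entrez gene 18628, chr4:151003652-151044665, minus strand), the Per gene with the 2 D-boxes shown above, was at 21.8, 13.5, 18.3 and 23.9 CPM in WT Old and at 18.8, 24.1, 21.6 and 19.2 CPM in C2-/- Old mice. The lowest was WT Old mouse 2 and the highest C2-/- Old mouse 2, as for Dbp. Its log2 fold change was 0.11, with an interval of -0.28 to 0.50.

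The Cry genes encode the cryptochromes, which carry most of the repression of the ARNTL and CLOCK pair. Cry1 (Entrez gene 12952, chr10:85131700-85185064, minus strand) was at 15.3, 9.67, 17.4 and 13.4 CPM in WT Old and at 13.9, 12.7, 12.1 and 15.4 CPM in C2-/- Old mice. Cry2 (Entrez gene 12953, chr2:92403646-92434043, minus strand) was at 35.2, 80.2, 59.9 and 78.9 CPM in WT Old and at 41.9, 77.2, 52.6 and 72.8 CPM in C2-/- Old mice. The knockout values of Cry1 lay inside the WT Old range, as did those of Cry2, and mouse 1 of each genotype was the lowest for Cry2. The log2 fold changes were -0.04 for Cry1 (interval -0.44 to 0.35) and -0.06 for Cry2 (interval -0.65 to 0.54).

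Nr1d1 and Nr1d2 encode REV-ERB alpha and beta, the repressors of Arntl. Nr1d1 (Entrez gene 217166, chr11:98767932-98775333, minus strand) was at 572, 303, 328 and 405 CPM in WT Old and at 529.7, 274, 176 and 473 CPM in C2-/- Old mice. Mouse 1 was the highest in both genotypes and C2-/- Old mouse 3 was the lowest. The log2 fold change was -0.15, with an interval of -0.87 to 0.58. Nr1d2 (Entrez gene 353187, chr14:18204054-18239127, minus strand) was at 99.5, 78.9, 95.3 and 94.8 CPM in WT Old and at 78.4, 109.9, 86.6 and 85.6 CPM in C2-/- Old mice. It had the narrowest interval of the 10 genes, with a log2 fold change of -0.03 between -0.33 and 0.26, that is a fold of 0.798 to 1.2. Dbp (Entrez gene 13170, chr7:45705088-45710203, plus strand), the output gene, was at 174, 57.7, 129 and 196 CPM in WT Old and at 136, 245, 145 and 184 CPM in C2-/- Old mice. The lowest value by a wide gap was that of WT Old mouse 2, and the other 3 WT Old mice overlapped the knockouts. The means were 139 ± 61.1 and 178 ± 49.6 CPM (SD, n = 4 each), a log2 fold change of 0.35 with an interval of -0.38 to 1.09.

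**Figure D2:**
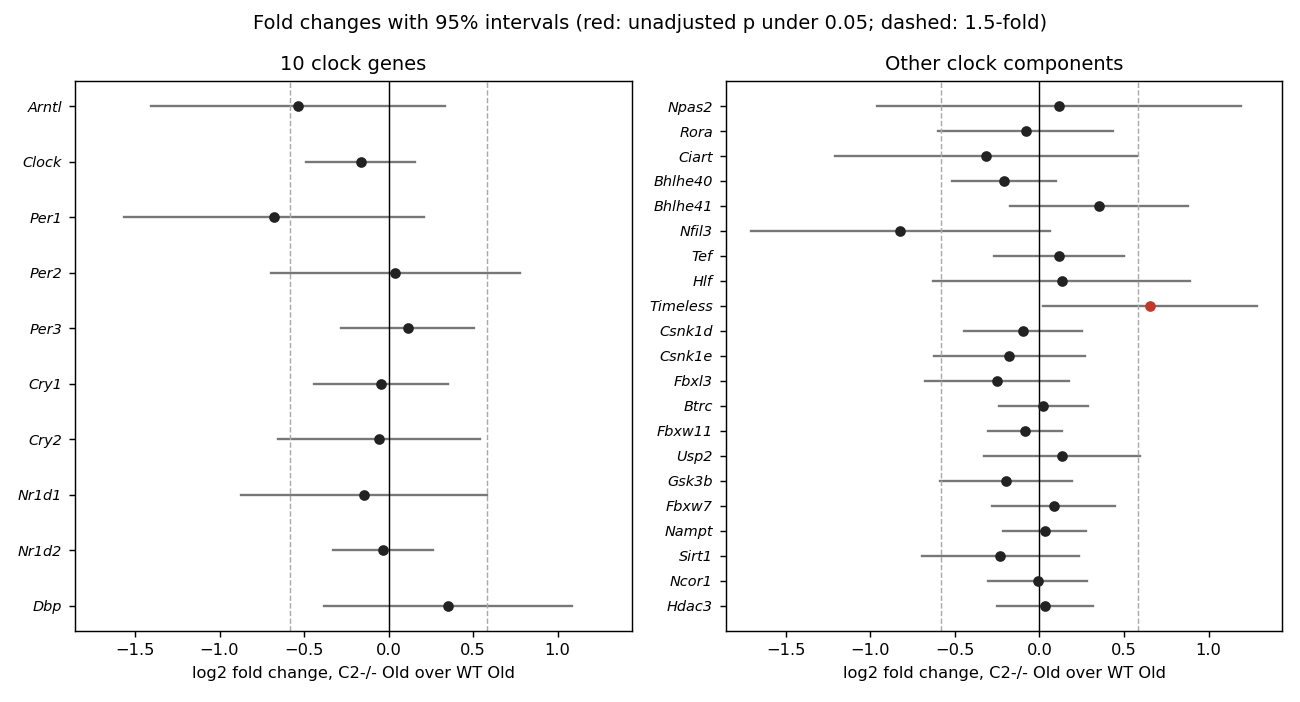
Log2 fold change of C2-/- Old over WT Old with its 95% interval (edgeR) for the 10 clock genes (left) and for 21 further clock components (right), with 1.5-fold marked by dashed lines and an unadjusted p under 0.05 in red. All 10 intervals on the left cross 0, and Timeless (0.65) is red on the right.

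Gene reads can be shared where genes overlap, and the strand setting of the counting was not stated in the sources used here. Nr1d1 shares 263 bases of its exons (8.55%) with Thra on the opposite strand, and Dbp shares 539 bases (18.0%) with Sphk2. Thra averaged 75.2 CPM and Sphk2 29.7 CPM over the 8 mice, both below their partners, and Thra ran from 55.2 to 88.4 CPM. Cry2 and Arntl share 4.67% and 0.439% of their exon bases with antisense genes that are not in the table.

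TPM takes length into account, dividing counts by transcript length before scaling each mouse to one total. On this scale Nr1d1 of the second loop and the output gene Dbp led. Mean levels over the 8 mice were 256.6 TPM for Nr1d1 (119.8 to 370.3), 186 TPM for Dbp (60.2 to 303), 49.0 TPM for Per1 (11.9 to 89.0), 36.2 TPM for Nr1d2 (28.0 to 46.4) and 28.8 TPM for Cry2 (15.6 to 37.9). The remaining genes were low, with 8.73 TPM for Arntl (4.26 to 16.6), 8.52 TPM for Cry1 (5.33 to 11.5), 5.93 TPM for Per3 (3.74 to 7.57), 5.0 TPM for Clock (3.73 to 6.47) and 4.67 TPM for Per2 (2.33 to 7.27). Neighbours in this order were not always apart. Nr1d1 was above Dbp in 6 of 8 mice, Arntl above Cry1 in 3 of 8, Per3 above Clock in 6 of 8 and Clock above Per2 in 5 of 8.

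The clock genes varied between mice of the same genotype. The within-genotype SD of log2 CPM had a median of 0.54 over the 10 clock genes, beside 0.261 over all genes tested. Per1 (SD 0.77, at percentile 94.9 of all genes tested), Arntl (0.68, 92.7), Dbp (0.62, 90.8), Per2 (0.60, 89.6) and Nr1d1 (0.60, 89.5) were the most variable. Cry2 followed (0.49, 82.9). Per3 (0.28, 55.1), Cry1 (0.28, 54.3), Clock (0.21, 35.6) and Nr1d2 (0.18, 25.7) varied about as much as, or less than, most genes. Clock, whose transcript is known to be nearly constant through the day, was among the least variable members. Nr1d2, which ARNTL and CLOCK switch on, varied less still.

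The question of whether the mice stood at different points of the clock was addressed first by the correlation of each gene with Arntl in log2 CPM over the 8 mice, with exact two-sided permutation tests adjusted over the 9 relations. Per2 ran opposite to Arntl, with Pearson's r = -0.862 (exact permutation p = 0.00518, adjusted p = 0.0360) and Spearman's rho = -0.929 (exact permutation p = 0.00223, adjusted p = 0.0201). Per3 had r = -0.828 (exact permutation p = 0.0117, adjusted p = 0.0360) and rho = -0.762 (exact permutation p = 0.0368, adjusted p = 0.110). Dbp had r = -0.819 (exact permutation p = 0.0120, adjusted p = 0.0360) and rho = -0.762 (exact permutation p = 0.0368, adjusted p = 0.110). These 3 genes were high in the mice in which Arntl was low. Nr1d2 had r = -0.715 (exact permutation p = 0.0453, adjusted p = 0.102) and rho = -0.571 (exact permutation p = 0.151, adjusted p = 0.340), and did not pass after adjustment.

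The other genes did not pass either. Their r with Arntl was -0.348 for Per1 (rho -0.286), -0.297 for Cry1 (rho 0.0952), -0.223 for Cry2 (rho -0.119), 0.291 for Clock (rho 0.405) and 0.413 for Nr1d1 (rho 0.524), with exact permutation p from 0.310 to 0.590 for r and from 0.197 to 0.840 for rho, and an adjusted p of 0.547 to 0.590 for r and 0.354 to 0.840 for rho. Cry1 thus had r and rho of opposite sign. Nr1d1 did not share the direction of Dbp, Per2 and Per3.

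These relations were repeated without the 2 mice farthest from the median of Arntl, WT Old mouse 2 and C2-/- Old mouse 2. Among the other 6 mice Per2 kept r = -0.916 (exact permutation p = 0.00833, adjusted p = 0.0750), whereas Per3 had r = -0.415 (exact permutation p = 0.399, adjusted p = 0.598) and Dbp had r = -0.225 (exact permutation p = 0.635, adjusted p = 0.635). The relations of Per3 and Dbp with Arntl were therefore weaker without those 2 mice, whose removal also narrows the range of Arntl. No relation passed the adjustment at 6 mice. Within WT Old and C2-/- Old mice, r was -0.856 and -0.919 for Per3 and -0.884 and -0.737 for Dbp. Each genotype holds 1 of those 2 mice, and these values were not tested. With each value taken as its deviation from the genotype mean, r was -0.948 for Per2 (exact permutation within genotype p = 0.00174, adjusted p = 0.0156), -0.817 for Per3 (exact permutation p = 0.0208, adjusted p = 0.0729) and -0.785 for Dbp (exact permutation p = 0.0330, adjusted p = 0.0742). On the same deviations r was -0.845 for Nr1d2 (exact permutation p = 0.0243, adjusted p = 0.0729) and -0.754 for Per1 (exact permutation p = 0.0434, adjusted p = 0.0781). The rho of Per2 was -0.929 (exact permutation p = 0.00694, adjusted p = 0.0625), and no relation passed by rho.

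**Figure D3:**
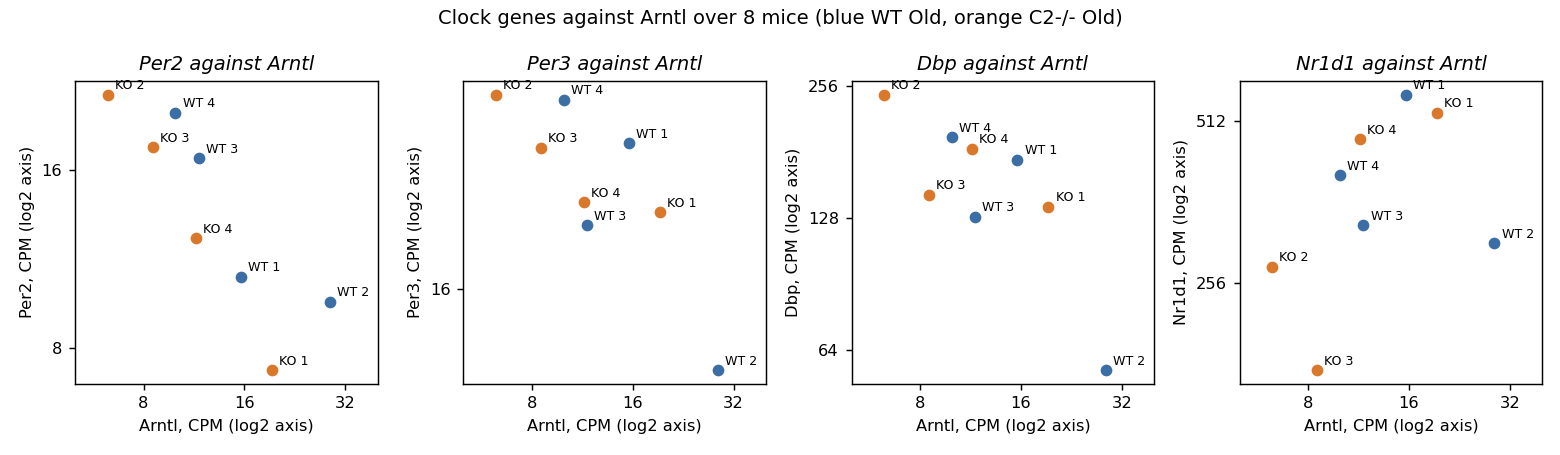
CPM of Per2, Per3, Dbp and Nr1d1 against Arntl in the 8 mice, both on log2 axes (WT Old blue, C2-/- Old orange, labelled WT and KO with the replicate number). Per2 declines along Arntl over all mice (r = -0.862), and Nr1d1 has no such decline (r = 0.413). The r of Per3 and Dbp is weaker without WT Old mouse 2 and C2-/- Old mouse 2, the ends of Arntl.

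Each mouse was then described by the log2 CPM of Dbp minus that of Arntl. This difference was 3.47, 1.0, 3.46 and 4.29 in WT Old mice 1 to 4 and 2.81, 5.28, 4.08 and 4.00 in C2-/- Old mice 1 to 4. In WT Old mouse 2 Dbp was 2.00 times Arntl, and in C2-/- Old mouse 2 it was 38.8 times Arntl. The 8 mice spanned 4.27 log2 units, or 19.4-fold, and the mice of the 2 genotypes overlapped. The means were 3.06 ± 1.42 and 4.04 ± 1.01 (SD, n = 4 each), a difference of 0.99 that was smaller than the SD of the WT Old mice. It was 0.30 without WT Old mouse 2 and 0.57 without C2-/- Old mouse 2.

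The mean log2 CPM of Nr1d1, Nr1d2, Dbp and Per3 minus that of Arntl also had WT Old mouse 2 lowest and C2-/- Old mouse 2 highest. It was 2.95, 1.19, 2.98 and 3.53 in WT Old and 2.39, 4.19, 3.28 and 3.25 in C2-/- Old mice. The genotype difference was 0.61. This mean shares its Dbp and Arntl values with Dbp minus Arntl. Other gene pairs ordered the mice differently. The log2 CPM of Nr1d1 minus that of Arntl was 5.19, 3.40, 4.8 and 5.34 in WT Old and 4.77, 5.44, 4.36 and 5.36 in C2-/- Old mice, with the same 2 mice at the ends and a genotype difference of 0.30. This pair shares its Arntl values with Dbp minus Arntl, so its ends are not a separate reading. Nr1d1 itself was at 303 CPM in WT Old mouse 2 and at 274 CPM in C2-/- Old mouse 2. For Per2 minus Nr1d1, a pair added after the values were seen, the differences were -5.75, -4.97, -4.28 and -4.33 in WT Old and -6.16, -3.67, -3.33 and -5.26 in C2-/- Old mice. On this pair C2-/- Old mouse 1 was the lowest and C2-/- Old mouse 3 the highest, and the genotype difference was 0.23. The mice differed by 7.12-fold on this ratio, and mouse 1 was the lowest of both genotypes. No collection times were given, so a difference in the hour of collection, in the clock of the mouse or in another state of the mouse cannot be told apart.

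**Figure D4:**
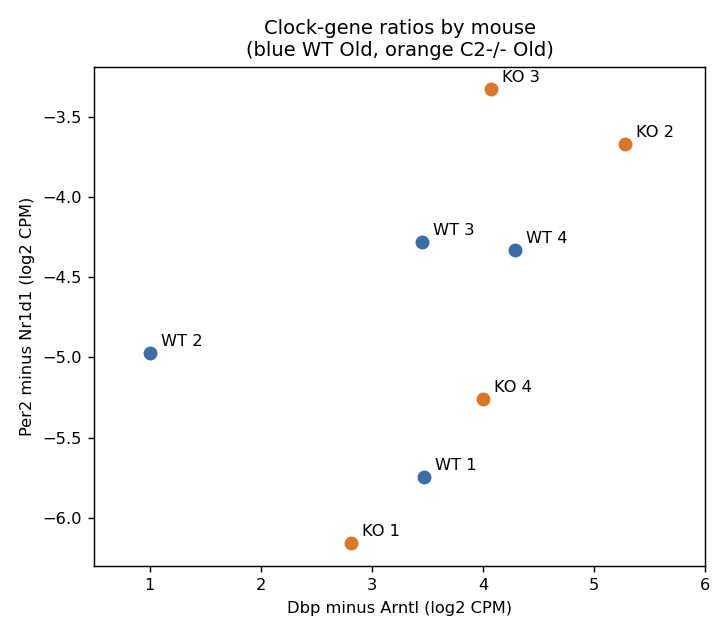
Log2 CPM of Dbp minus Arntl (horizontal) against Per2 minus Nr1d1 (vertical) in each of the 8 mice (WT Old blue, C2-/- Old orange, labelled by replicate). WT Old mouse 2 is at the left end (1.0) and C2-/- Old mouse 2 at the right end (5.28) of the first difference, while C2-/- Old mouse 1 (-6.16) and C2-/- Old mouse 3 (-3.33) are at the ends of the second, and the genotypes overlap on both axes.

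Further clock components were read from a list of 25 genes, of which 22 were tested. In C2-/- Old mice 10 were higher and 12 lower, 1 in each direction with an unadjusted p under 0.05 (9.09% of the list in all, beside 5.29% of all genes tested) and none with an adjusted p under 0.05 in edgeR's quasi-likelihood test. Timeless, a clock-related gene of the replication fork, was at 1.16 to 1.97 CPM in WT Old and at 1.63 to 3.41 CPM in C2-/- Old mice, with overlap (log2 fold change 0.65, SE 0.29, unadjusted p = 0.0448).

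The D-box activators shared their lowest mouse. Hlf and Tef encode activators of the same family as DBP, and Nfil3 encodes the repressor that competes with them at D-boxes such as those of Per3. Hlf was at 19.2, 8.64, 27.2 and 30.4 CPM in WT Old and at 17.0, 32.7, 19.5 and 24.3 CPM in C2-/- Old mice. Tef was at 239, 196, 305 and 323 CPM in WT Old and at 234, 309.6, 278 and 329 CPM in C2-/- Old mice. For Dbp, Hlf, Tef and Per3 alike the lowest value was in WT Old mouse 2. Nfil3 was at 21.4, 49.6, 34.2 and 34.8 CPM in WT Old and at 12.0, 18.0, 38.7 and 10.4 CPM in C2-/- Old mice, and WT Old mouse 2 was the highest. With Dbp minus Arntl over the 8 mice, r was 0.925 for Hlf, 0.850 for Tef and -0.340 for Nfil3. These are descriptions over mice that share the Dbp values, and Hlf, Tef and Nfil3 were chosen after their values were seen.

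Muscle genes known as clock outputs or rhythmic in muscle were all tested, 18 of 18, with 8 higher and 10 lower in C2-/- Old mice and a median log2 fold change of -0.05. Slc2a4, which encodes the insulin-responsive glucose transporter GLUT4, was at 791, 817, 702 and 699 CPM in WT Old and at 681, 584, 614 and 556 CPM in C2-/- Old mice. The groups did not overlap. Its log2 fold change was -0.30 (SE 0.11, unadjusted p = 0.0205), and its adjusted p in edgeR's quasi-likelihood test was 0.849. It was the only gene of the 18 with an unadjusted p under 0.05 (5.56% of the list, near the 5.29% of all genes tested) and the only one without overlap, which 3.38% of all genes tested were.

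Per1 and the clock outputs also answer to glucocorticoids, to handling and to temperature, so genes that report on these were read in the same mice. All 14 glucocorticoid-response genes had a negative log2 fold change (median -1.07), beside 54.2% of all genes tested, and 3 of them (21.4%) had an unadjusted p under 0.05, beside 5.29% of all genes tested. These were Cdkn1a, a cell-cycle inhibitor (log2 fold change -2.02, unadjusted p = 0.0369 in edgeR), Klf15, a metabolic transcription factor (-0.71, unadjusted p = 0.0220), and Fbxo32, an atrophy ubiquitin ligase (-1.13, unadjusted p = 0.0234). None passed after adjustment in edgeR's quasi-likelihood test (lowest adjusted p = 0.852). On much of this list 1 mouse, WT Old mouse 2, stood apart. Fkbp5, a glucocorticoid receptor co-chaperone, was at 205 CPM in that mouse and at 19.6 to 67.9 CPM in the other 7, and Cdkn1a was at 405 CPM and at 22.6 to 43.1 CPM. Tsc22d3, which encodes the glucocorticoid-induced leucine zipper, was at 296 CPM in that mouse and at 157 to 262 CPM in the others. Zbtb16 and Sgk1, named here because of their values, were instead highest in C2-/- Old mouse 3. Zbtb16 was at 110.9 CPM there and at 98.05 CPM in WT Old mouse 2, and Sgk1 at 317.5 and 293.1 CPM. Without WT Old mouse 2, 10 of 14 were lower, none had an unadjusted p under 0.05 and the median was -0.19. The mouse with the highest Arntl and the lowest Dbp was thus also the one with the highest Fkbp5, Tsc22d3 and Cdkn1a, and whether these move together for 1 reason was not tested.

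Immediate early genes, which respond within minutes to stimulation, were tested in 23 of 24 cases. All 23 had a negative log2 fold change (median -0.88), beside 54.2% of all genes tested. Of these only Klf2, a flow-responsive factor of the endothelium, was below 0.05 without adjustment (log2 fold change -0.88, unadjusted p = 0.0416 in edgeR), that is 4.35% of the list, near the 5.29% of all genes tested. Fos was at 4.47, 70.9, 7.80 and 245 CPM in WT Old and at 1.85, 123, 2.24 and 0.901 CPM in C2-/- Old mice, and Egr1 at 41.4, 217, 13.1 and 532 CPM and at 12.2, 347, 18.1 and 8.08 CPM. WT Old mice 2 and 4 and C2-/- Old mouse 2 were the high ones for both genes. Per1 did not follow them throughout, since its highest value was in WT Old mouse 3 (211 CPM), where Fos was at 7.80 CPM, while its lowest was in C2-/- Old mouse 1, where Fos was at 1.85 CPM. The counts moved with single mice. Without WT Old mouse 4, 16 of 23 immediate early genes were lower with a median of -0.18. Without C2-/- Old mouse 2, 23 of 24 were lower with a median of -1.66. No share of all genes was taken for these fits. C2-/- Old mouse 2 was the only knockout mouse with high Fos and Egr1, so these counts turn on which mouse was left out.

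Of the 10 temperature-responsive genes, 5 were higher and 5 lower, with a median log2 fold change of 0.02 and none with an unadjusted p under 0.05. The heat shock gene Hspa1b was at 2.31 to 5.79 CPM in WT Old and at 2.88 to 6.53 CPM in C2-/- Old mice. The cold-inducible Cirbp was at 11.8 to 18.6 CPM in WT Old and at 9.61 to 14.0 CPM in C2-/- Old mice. Neither separated the genotypes. C2-/- Old mouse 3, which had the lowest Nr1d1, also had the highest Hspa1b and the lowest Cirbp, and without it 1 of the 10 genes was higher and 9 were lower, with a median of -0.12. The part of temperature, handling or hormone in the clock-gene values was not tested.

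**Figure D5:**
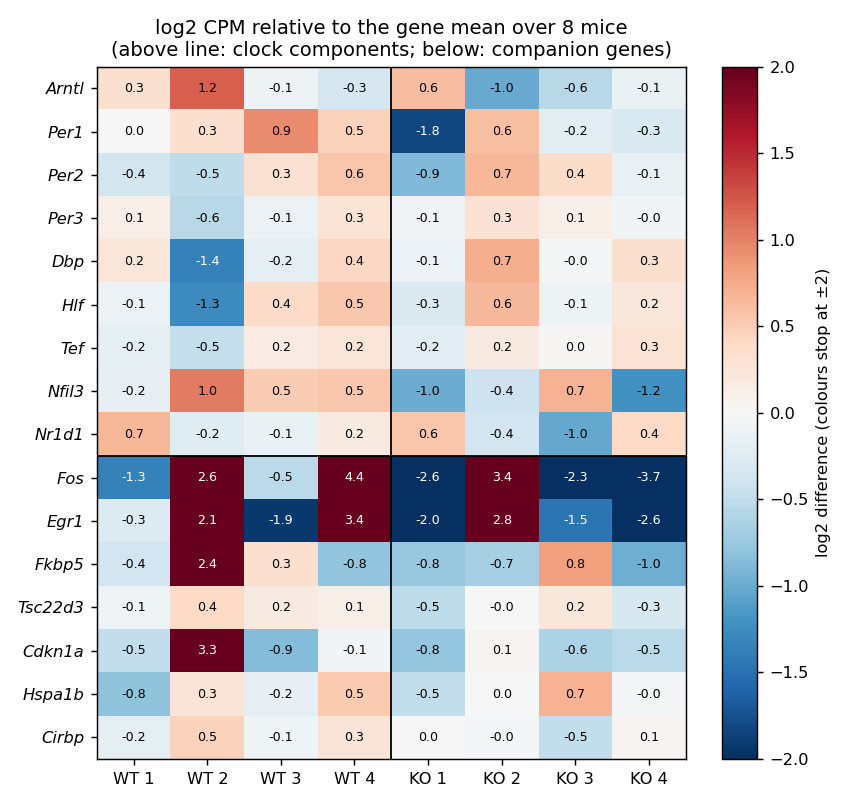
Log2 CPM of 9 clock components (above the line) and 7 companion genes (below) in each mouse relative to the mean of that gene over the 8 mice, with the value printed in each cell and colours that stop at 2 log2 units. WT Old mouse 2 has the highest Arntl, Nfil3, Fkbp5 and Cdkn1a and the lowest Dbp, Hlf and Tef, and Fos and Egr1 are high in WT Old mice 2 and 4 and in C2-/- Old mouse 2.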

How the data were processed

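TA muscle RNA of 8 mice was enriched for poly(A), sequenced as DNA nanoballs and quantified by the authors. The submitters' processing notes name HISAT, Bowtie2 and DESeq2 with the build GRCm38.p6. The deposited table holds expected counts per gene, made by the authors and not whole in 5.50% to 6.53% of entries, and TPM values, also made by the authors. Its 8 FPKM columns and the authors' comparison columns, fold changes and p-values, were not used. Of 16687 rows, 16686 name a gene, and 25 symbols were restored from the gene identifier.

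Expected counts were rounded and fitted in edgeR 4.0.16 (R 4.3.3) with TMM factors (0.929 to 1.03), filterByExpr and the quasi-likelihood test over 12542 genes, with Benjamini-Hochberg adjustment. A gene was called at an adjusted p under 0.05 and over 1.5-fold. The fit was tested on simulated data. Log2 CPM used a prior count of 2. Alternatives were RLE size factors, 2 other low-count filters, limma-voom (limma 3.58.1, the method of the study), DESeq2 1.42.0, a replicate block, and each mouse left out in turn. Intervals and floors cover counting and sample error as fitted, and PCR reads without molecular identifiers are not independent molecules. Labels give 1 muscle sample per mouse number, and no 2 libraries of the same genotype agreed within sampling noise (chi-square per degree of freedom of 29.4 or more). Named genes were the 10 clock genes, members of the other lists with an unadjusted p under 0.05, 6 companions (Fos, Egr1, Fkbp5, Tsc22d3, Hspa1b, Cirbp) and the 5 genes with the highest and the 5 with the lowest r with Dbp minus Arntl. For 1 gene of the lists no values are reported here. The members and lists were chosen with earlier results of these data known. Gene positions are those of GENCODE vM21 and promoters those of RefSeq, both on GRCm38.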

Additional observations from a re-analysis of the deposited data

How the results depend on the processing

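No clock gene passed the adjusted threshold under any of the 14 alternatives. The number with an unadjusted p under 0.05, 0 in the main analysis, ranged from 0 to 1 when each mouse was left out (Arntl without C2-/- Old mouse 1, log2 fold change -0.91, and Per1 without C2-/- Old mouse 2, -1.08), and was 1 with the replicate number as a block (Per1, -0.87). The number of relations with Arntl that passed by r, 3, was 1 on deviations from the genotype mean and 0 without the 2 farthest mice. The log2 fold change of Per2 was -0.0016 with limma-voom and -0.0075 with the replicate block, both opposite in sign to the main value of 0.04, and the r of Cry1 was 0.336 without the 2 farthest mice; the cause was not tested. Leaving out each mouse gave log2 fold changes of -0.20 to 0.27 for Per2, -0.021 to 0.24 for Per3, -0.18 to 0.089 for Cry1, -0.26 to 0.096 for Cry2, -0.38 to 0.082 for Nr1d1 and -0.14 to 0.036 for Nr1d2, all of which change sign. Arntl (-0.91 to -0.12), Clock (-0.23 to -0.07), Per1 (-1.08 to -0.38) and Dbp (0.10 to 0.57) kept their direction, and the genotype difference of Dbp minus Arntl stayed between 0.30 and 1.40. Mice with the same replicate number correlated with r of -0.05 to 0.27 over 4 pairs, not all above 0.1, so the numbers were not taken as pairs. Mice of different numbers ran from -0.225 to 0.202, and the highest r of all was between the 2 mice numbered 1. The block added 1 clock gene at an unadjusted p under 0.05. That was Per1 (unadjusted p = 0.0221, adjusted p = 0.865 in edgeR's quasi-likelihood test). With 4 mice per genotype the intervals of Arntl, Per1, Per2, Cry2, Nr1d1 and Dbp include 1.5-fold changes in at least 1 direction.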

Other observations

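The 10 clock genes left out, 78 of 11389 genes with a mean of at least 1 CPM had an absolute r above 0.9 with Dbp minus Arntl over the 8 mice, which is a description over mice that share libraries and depth. The 5 genes with the lowest r were Hsd17b10, a mitochondrial dehydrogenase (-0.979), Phc2, a Polycomb protein (-0.973), B3glct, a glucosyltransferase (-0.968), Cept1, a phospholipid-synthesis enzyme (-0.960), and Slc25a34, a mitochondrial carrier (-0.958). Slc25a34 was at 43.4 CPM in WT Old mouse 2, the mouse with the lowest Dbp, and at 7.40 to 15.3 CPM in the other 7. The 5 with the highest r were Zfp128, a zinc-finger protein (0.966), Fnip2, a partner of folliculin (0.960), St3gal2, a sialyltransferase (0.949), Brwd3 (0.949) and Vash2, a tubulin carboxypeptidase (0.945). Vash2 was at 1.09 CPM in WT Old mouse 2 and at 6.70 CPM in C2-/- Old mouse 2. Of the clock components outside the 10 genes, Hlf stood at rank 12 and Bhlhe41, which encodes the repressor DEC2, at rank 33 from the highest r (r = 0.890). Both were picked because of their values, and the other ranked components ran from r = -0.761 (Csnk1d) to r = 0.883 (Hdac3).

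Among the muscle outputs, 3 genes, picked because of their values, stood apart in WT Old mouse 2. Mylk4, a kinase of the myosin light chain kinase family, was at 441 CPM in WT Old mouse 2 and at 1009 to 2624 CPM in the other 7 mice. Pfkfb3, which makes the activator of phosphofructokinase, was at 43.0 CPM in that mouse and at 131 to 422 CPM in the others. Pdk4, which restrains pyruvate oxidation, was at 1009 CPM in it and at 129 to 468 CPM in the others.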
